A study of Mus musculus with 6 samples.

Results

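The 10 apolipoprotein genes Apoa1, Apoa2, Apoa4, Apoa5, Apob, Apoc1, Apoc2, Apoc3, Apoe and Apoh were read from liver RNA sequencing of mice with diet-induced insulin resistance (IR). They were chosen by gene name from the 54532 genes of the count table, and all 10 were found. The 6 libraries came from male C57BL/6J mice, 3 separate mice in each group, that had been put on a high-fat diet at 8 weeks of age for 6 weeks. After a 16 h fast, the mice of 3 libraries received insulin at 0.75 units per kg body weight by intraperitoneal injection (IR insulin) and those of the other 3 its carrier BSA (IR vehicle), for 6 h. All mice shared the diet and the fast, so levels on a chow diet are not analysed here. The question was whether insulin changed hepatic apolipoprotein transcripts in insulin-resistant mice.

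Apolipoproteins are the protein coat of lipoproteins, the particles that carry triacylglycerol and cholesterol through plasma. ApoB forms the scaffold of very low-density lipoprotein (VLDL), which the liver secretes, while apoA-I and apoA-II form that of high-density lipoprotein (HDL). The smaller exchangeable members move between particles and set how fast their lipid is hydrolysed by lipoprotein lipase and how they are taken up by the liver. In the healthy liver, insulin restrains VLDL secretion and lowers Apoc3 transcription through the factor FOXO1.

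Levels are given as CPM, each gene's counts scaled by TMM (a factor for the make-up of each library) to a common library size, and differences as log2 fold changes of IR insulin over IR vehicle. The libraries held 18449986 to 21827619 counts. Defining liver transcripts were present in all of them: 7 hepatocyte markers summed to 62927 to 174339 CPM. The 7 enterocyte markers, from the other main apolipoprotein-producing tissue, summed to 115 to 154 CPM. Of these, Alpi and Sis had no read in any library, and 1 had reads in every library. Whether any gut RNA was present was not tested. IR vehicle replicate 2 stood apart from the other libraries, with r of 0.878 to 0.921 against them (Pearson's r of log2 CPM; it is taken across genes, and genes are no independent replicates), and IR vehicle replicate 3 did so less (0.948 to 0.954 with the remaining 4). Fold changes of the members are therefore also given with each of these libraries left out in turn. The counts are not of independent molecules, so the intervals below cover counting error only.

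Together the 10 genes took a large part of the liver transcriptome. Their reads made up 4.21%, 2.64% and 5.13% of the counts in IR vehicle replicates 1, 2 and 3, and 4.84%, 4.61% and 4.49% in IR insulin replicates 1, 2 and 3. The exact Clopper-Pearson 95% intervals were narrow, for example 2.633 to 2.647% in IR vehicle replicate 2. The groups overlapped, with means of 3.99 ± 1.26% and 4.64 ± 0.178% (SD, n = 3). The difference of 0.653 percentage points gave a two-sided exact permutation p of 0.6, where 0.1 is the smallest that 3 against 3 libraries allow. Without IR vehicle replicate 2 the difference was −0.0237 percentage points. Apoe alone gave 39.9 to 41.2% of the reads of the 10 genes in 5 libraries and 14.0% in IR vehicle replicate 2, where Apob gave 45.3% against 8.29 to 11.6% elsewhere.

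**Figure D1:**
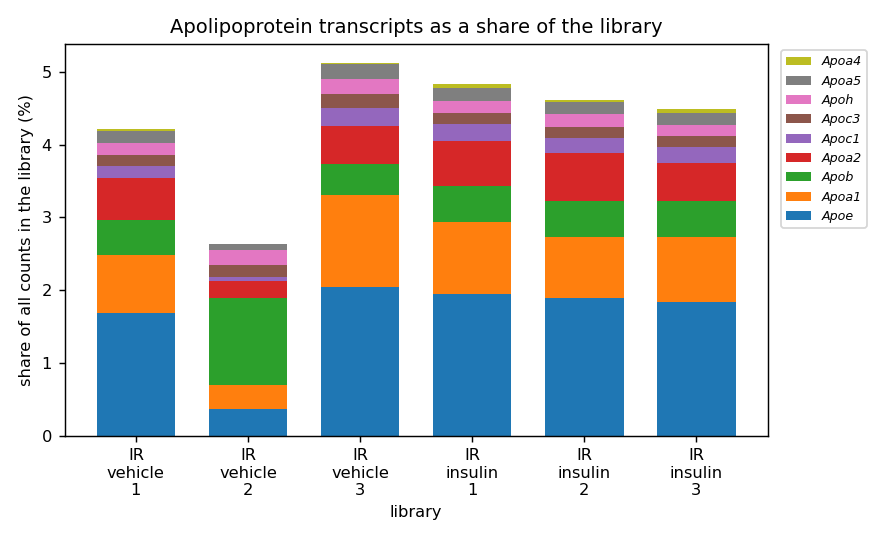
Stacked bars of the counts of each apolipoprotein gene as a percentage of all counts in each of the 6 libraries; Apoc2 is too low to be seen. IR vehicle replicate 2 has the lowest total, 2.64%, and the largest Apob block, while the 3 IR insulin bars lie between 4.49% and 4.84%.

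After Benjamini-Hochberg adjustment over 13377 genes, none of the apolipoprotein genes passed a threshold of 0.05 in edgeR's quasi-likelihood test. Over all genes 0.0% passed it, 0 genes in edgeR and 0 in DESeq2, while 383 genes in edgeR and 507 in DESeq2 had an unadjusted p under 0.05. Of the 10 genes, 9 passed the filter on low counts and were tested, and Apoc2 was not. The study's own criteria asked for a log2 fold change of 0.35 or more in size and an unadjusted p under 0.05. By these, 1 of the 9 passed, Apoa4, which was higher with insulin, against 2.86% of all genes tested (1.0% higher and 1.86% lower). With insulin, 6 of the 9 had a positive and 3 a negative log2 fold change, with a median of 0.10 beside −0.02 over all genes. The groups did not overlap for 3 of the 9, Apoa4 (higher with insulin) and Apoc3 and Apoh (lower), against 12.3% of all genes (6.25% higher and 6.04% lower).

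**Figure D2:**
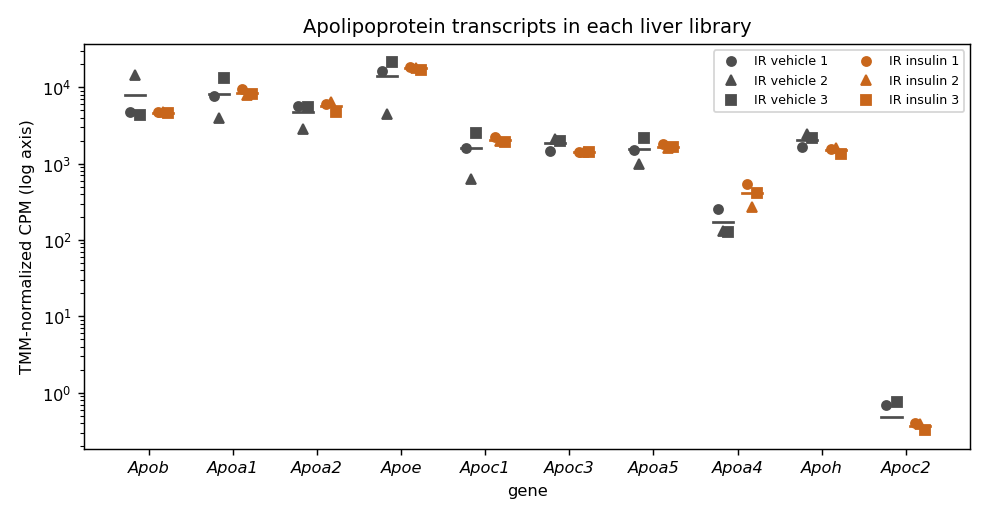
TMM-normalized CPM of the 10 genes (log axis) in IR vehicle (grey) and IR insulin (orange) libraries, with circles, triangles and squares for replicates 1, 2 and 3 and bars at the group means; Apoc2 in IR vehicle replicate 2 is 0 and is not drawn. The insulin points lie close together for all genes except Apoa4, and the grey triangle, IR vehicle replicate 2, is the lowest or highest point of most genes.

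Apoa4 encodes apoA-IV, which is induced by fasting in mouse liver and favours the secretion of larger VLDL particles. It was at 258, 133 and 128 CPM in IR vehicle replicates 1, 2 and 3 and at 534, 270 and 414 CPM in IR insulin replicates 1, 2 and 3. Every insulin library was thus above every vehicle library, but the lowest insulin value exceeded the highest vehicle value by little. Between 2162 and 4871 reads were counted with vehicle and between 6226 and 11855 with insulin, so counting error was small beside the spread between libraries. The means were 173 ± 73.3 and 406 ± 132 CPM (SD, n = 3), a ratio of 2.35. On the log2 scale the difference was 1.23 ± 0.38 (SE; edgeR, unadjusted p 0.0117, adjusted p 0.852). The unadjusted p ran from 0.00242 to 0.0709 over 13 alternatives, with the adjusted p from 0.473 to 0.998. With an offset for the GC content of transcripts the log2 fold change was 0.76 (unadjusted p 0.0709), and without IR insulin replicate 1, the highest library, it was 0.99 (unadjusted p 0.0515). It was 1.07 without IR vehicle replicate 2 and 1.06 without IR vehicle replicate 3, both with an unadjusted p under 0.05.

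Apoa4 lies on mouse chromosome 9 (46240696 to 46243459, plus strand, build GRCm38) within a cluster of 4 apolipoprotein genes that spans 43340 bases. Its neighbours are Apoa1 (46228580 to 46230466, plus strand), Apoc3 (46232933 to 46235636, minus strand) and Apoa5 (46268633 to 46271919, plus strand). Apoa4 overlaps Gm47528 and Gm10680 on the opposite strand, which had at most 31 and 0 reads in a library. The sequences upstream of the 3 plus-strand genes are shown because these neighbours differed in how they behaved between the libraries. Each is the part of the RefSeq promoter window (GRCm38.p6) that precedes the first annotated base of the gene, and capitals mark a match to a searched motif.
Apoa1, chr9:46228380-46228579, plus strand: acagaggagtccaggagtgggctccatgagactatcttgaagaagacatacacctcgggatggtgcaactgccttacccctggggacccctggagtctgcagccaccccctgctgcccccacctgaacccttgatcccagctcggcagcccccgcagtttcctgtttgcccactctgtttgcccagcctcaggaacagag
Apoa4, chr9:46240594-46240695, plus strand: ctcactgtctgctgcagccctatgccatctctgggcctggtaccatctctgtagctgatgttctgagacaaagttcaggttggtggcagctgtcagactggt
Apoa5, chr9:46268383-46268632, plus strand: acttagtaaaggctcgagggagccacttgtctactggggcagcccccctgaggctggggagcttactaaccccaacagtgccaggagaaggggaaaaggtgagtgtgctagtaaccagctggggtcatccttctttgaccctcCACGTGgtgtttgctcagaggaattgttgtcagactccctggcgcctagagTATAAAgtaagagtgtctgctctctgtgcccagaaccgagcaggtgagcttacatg
The capitals in Apoa5 are an E-box (CACGTG) and a TATA box (TATAAA), which do not overlap. Over both strands, an E-box was in 7.15% and a TATA box in 13.6% of all 32851 promoter windows of 300 bases. The FOXO element TGTTTAC (3.65% of windows) and the insulin response element CAAAACA (6.28%) were not in the 3 sequences shown. The 8 apolipoprotein genes with a window had 12 windows in all. Apoc1 and Apoc3 had no window, so no motif was searched for upstream of them. A gene counts here if any of its windows matches, whereas the shares are per window. Among the 8 genes, the FOXO element was in windows of Apoa2, Apoe and Apoh and the insulin response element in 1, that of Apoe. The HNF4 core CAAAGTCCA, in 0.475% of all windows, matched 0 of the 8 genes. GTTAAT, an arm of the HNF1 site (7.1% of windows), was in windows of Apoc2 and Apoe, the C/EBP motif TTGCNNAA (10.8%) in those of Apoa2 and Apob, and the Sp1 box GGGCGG (35.7%) in 0 of the 8.

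The 4 genes of the chromosome 9 cluster did not move together. In IR vehicle replicate 3, Apoa1, Apoc3 and Apoa5 stood above the median of the other 5 libraries by 0.73, 0.48 and 0.44 (log2), while Apoa4 stood 1.07 below it. The reads of Apoa4, as a percentage of those of Apoa1, were 3.33%, 3.40% and 0.99% in IR vehicle replicates 1, 2 and 3 and 5.61%, 3.45% and 5.10% in IR insulin replicates 1, 2 and 3, so the groups did not overlap. As a percentage of Apoc3 they were 17.4%, 6.38% and 6.50% with vehicle and 37.6%, 19.3% and 29.2% with insulin. The two-sided exact permutation p was 0.1 for both ratios, the smallest this design allows, and 0.4 adjusted over the 8 ratios compared. Apoa5 lay between 16.6% and 25.1% of Apoa1 in all 6 libraries.

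Apoc3 encodes apoC-III, an inhibitor of lipoprotein lipase and of particle uptake. It was at 1478, 2080 and 1975 CPM in the vehicle libraries and at 1420, 1396 and 1419 CPM in the insulin libraries. All vehicle values lay above all insulin values, and the highest insulin value was only just under IR vehicle replicate 1. Insulin and vehicle differed by −0.39 ± 0.255 on the log2 scale (SE; unadjusted p 0.169, edgeR). It was negative in all 13 alternatives, from −0.84 to −0.19, and passed the criteria in 1 of them, the GC offset, where it was −0.84 (unadjusted p 0.0462). In IR vehicle replicate 2, Apoc3 was 0.55 (log2) above the median of the other libraries. A curve through all genes gave −0.83 there at its GC content. The part of that library in this call was not tested. Without IR vehicle replicate 2 the log2 fold change was −0.29, and without IR vehicle replicate 3 it was −0.33. Among the insulin libraries the highest over the lowest value was 1.02.

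Apoa5 encodes apoA-V, an activator of triacylglycerol hydrolysis that is made in the liver. Its levels were 1526, 979 and 2150 CPM under vehicle and 1783, 1588 and 1626 CPM under insulin. The insulin values fell inside the vehicle range. Its log2 fold change of 0.10 ± 0.33 (SE) was smaller than its error, and it was −0.14 without IR vehicle replicate 2, 0.41 without IR vehicle replicate 3 and −0.20 with a GC offset. Apoa5 overlaps Gm47544 on the opposite strand, which had 0 reads in every library.

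Apoa1, which encodes the main HDL protein, did not differ beyond the spread between libraries. It was at 7730, 3901 and 12978 CPM under vehicle and at 9517, 7822 and 8120 CPM under insulin. The lowest and the highest of the 6 values were both vehicle libraries. Between the groups the log2 fold change was 0.05 ± 0.44 (SE; unadjusted p 0.914, edgeR), and −0.28 without IR vehicle replicate 2, −0.22 with a GC offset and 0.54 without IR vehicle replicate 3. Apoa2 (chromosome 1, 171225054 to 171226379, plus strand) encodes the second HDL protein. It was at 5648, 2863 and 5497 CPM under vehicle and 5982, 6316 and 4755 CPM under insulin. IR vehicle replicate 2, at 2863 CPM, was the only vehicle library outside the range of the insulin group, and the log2 fold change of 0.28 ± 0.34 (SE) was 0.03 without it and 0.42 without IR vehicle replicate 3.

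Apob (chromosome 12, 7977648 to 8016835, plus strand) overlaps no annotated gene. Its levels were 4756, 14425 and 4380 CPM under vehicle and 4707, 4662 and 4597 CPM under insulin. The other 5 libraries agreed within a ratio of 1.09, and IR vehicle replicate 2 alone was 3.09 times their median. The groups differed by −0.75 ± 0.48 on the log2 scale (SE; unadjusted p 0.158, edgeR), which was 0.03 without that library and −1.04 (unadjusted p 0.0513) without IR vehicle replicate 3.

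Apoe, Apoc1 and Apoc2 lie together on chromosome 7, in a cluster that spans 27610 bases. Apoe (19696109 to 19699188, minus strand) encodes the ligand by which remnant particles bind hepatic receptors. It was at 16470, 4457 and 21069 CPM under vehicle and 18607, 17944 and 16859 CPM under insulin. IR vehicle replicate 2 was 4.03-fold below the median of the others, and the insulin values lay between those of IR vehicle replicates 1 and 3. Its log2 fold change was 0.35 ± 0.53 (SE; unadjusted p 0.528, edgeR), and −0.07 without that library or 0.77 without IR vehicle replicate 3. Apoe is also made by macrophages: the 11 Kupffer cell and macrophage markers, all detected in every library, summed to 305 to 584 CPM with vehicle, lowest in IR vehicle replicate 2, and 417 to 765 CPM with insulin. Their part in the Apoe values was not tested, and in whole liver fewer cells of a type and less RNA per cell cannot be told apart.

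Apoc1 (19689481 to 19692660, minus strand) encodes apoC-I, a small protein that slows particle uptake. It was at 1587, 625 and 2511 CPM under vehicle and at 2230, 1967 and 1943 CPM under insulin. Its libraries took the same order as those of Apoe at both ends, lowest in IR vehicle replicate 2 and highest in IR vehicle replicate 3. The reads of Apoc1 stayed between 9.64% and 14.0% of those of Apoe, whereas Apoe itself spanned a ratio of 4.73 over the vehicle libraries. For Apoc1 the log2 fold change was 0.38 ± 0.46 (SE; unadjusted p 0.438, edgeR), 0.003 without IR vehicle replicate 2 and 0.89 without IR vehicle replicate 3. Apoc4, a neighbour that is not among the 10, was at 1.15% of Apoe in IR vehicle replicate 2, against 3.20% to 4.53% elsewhere.

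Apoc2 (19671579 to 19677941, minus strand) encodes apoC-II, the cofactor that lipoprotein lipase needs. It had 13, 0 and 16 reads with vehicle and 9, 9 and 7 with insulin, at most 0.763 CPM, and the 0 allows up to 3 reads. Gm44805, annotated on the same strand, overlaps it and had 0 reads in all 6 libraries. The counting program was not stated in the sources used here, so how reads that fit both genes were counted is not known here and the level of Apoc2 is uncertain. No fold change is given for it.

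Apoh (chromosome 11, 108343354 to 108414396, plus strand) encodes apolipoprotein H, or β2-glycoprotein I, a phospholipid-binding plasma protein that is not a member of the exchangeable family. It was at 1626, 2407 and 2155 CPM under vehicle and 1546, 1614 and 1330 CPM under insulin. The groups did not overlap, by a margin of 1614 against 1626 CPM. With insulin the log2 fold change was −0.46 ± 0.27 (SE; unadjusted p 0.123, edgeR), and it stayed negative in all 13 alternatives, from −0.61 to −0.27. Without IR vehicle replicate 1 it was −0.61 (unadjusted p 0.0490), without IR vehicle replicate 2 −0.33 and without IR vehicle replicate 3 −0.43. Apoh overlaps Gm11656 on the same strand (0 reads in every library) and Prkca on the other (19 to 79 reads).

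**Figure D3:**
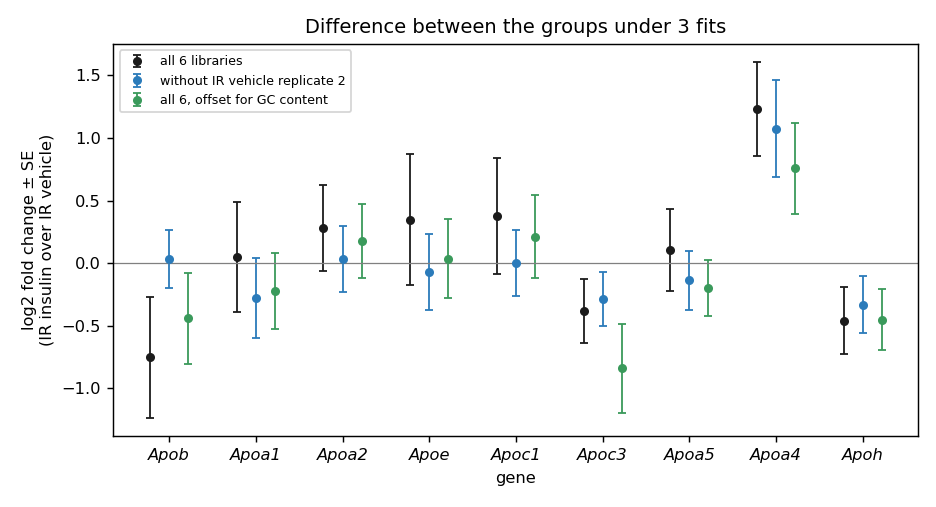
Log2 fold changes of IR insulin over IR vehicle with their SE for the 9 tested genes, from all 6 libraries (black), without IR vehicle replicate 2 (blue) and with an offset for GC content (green). Apob moves from −0.75 to 0.03 without that library, while Apoa4 stays between 0.76 and 1.23 and Apoc3 and Apoh stay below 0.

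Dividing by the kilobases of the longest coding transcript takes out length only. It does not take out effects of GC content or of mapping that does not splice reads across introns. On this scale the order was led by Apoe. Averaged over the 6 libraries it stood at 11293 CPM per kb, followed by Apoa2 (9993), Apoa1 (8063), Apoc1 (3403), Apoc3 (2296), Apoh (1496), Apoa5 (640), Apob (449) and Apoa4 (159). In IR vehicle replicate 1 and the 3 insulin libraries the 9 genes stood in this same order. In IR vehicle replicate 3 Apoa1 and Apoa2 changed places. In IR vehicle replicate 2 Apoe was below Apoa2 and Apoa1, Apoc1 was below Apoc3 and Apoh, and Apob was above Apoa5. Over the libraries the ranges of neighbours in this order overlapped, except those of Apoh and Apoa5 and of Apob and Apoa4. Apoa4 was the lowest of the 9 in every library.

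All 9 genes had a wider range in the vehicle group than in the insulin group, Apoa4 only by a ratio of 2.01 against 1.98. The share of all genes that did so was not counted, nor was it for the lowest, highest and sign counts below. Over all genes, too, IR vehicle replicates 2 and 3 lay furthest from the other libraries. The median absolute deviation (log2) was 0.698 and 0.352 in them and 0.153 to 0.217 in the rest. The highest over the lowest vehicle value ran from 1.41 (Apoc3) to 4.73 (Apoe), and that of the insulin values from 1.02 to 1.33 for 8 genes and 1.98 for Apoa4. IR vehicle replicate 2 gave the lowest of the 6 values for 5 genes and the highest for 3. In it, 6 genes were below and 3 (Apob, Apoc3 and Apoh) above the median of the other 5 libraries, and 5 of the 9 were at least 1 away from it on the log2 scale, against 32.5% of all genes. The 6 genes below it were those with a positive fold change between the groups. Without this library the fold change changed sign for 4 genes, Apoa1, Apoa5, Apob and Apoe.

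The deviations of IR vehicle replicate 2 followed the GC content of transcripts, with a slope of −1.16 (log2) per 10 percentage points of GC over 13367 genes, against −0.06 to 0.19 in the other libraries. The apolipoprotein genes span much of that scale. Stretches of 120 coding bases, each with the GC content nearest to that of its whole transcript, are shown for 4 of them with G and C in capitals.
Apoe, transcript bases 922 to 1041: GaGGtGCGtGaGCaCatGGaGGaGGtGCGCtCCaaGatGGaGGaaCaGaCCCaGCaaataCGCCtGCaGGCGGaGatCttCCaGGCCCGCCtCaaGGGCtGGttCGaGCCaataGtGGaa
Apoa4, transcript bases 1179 to 1298: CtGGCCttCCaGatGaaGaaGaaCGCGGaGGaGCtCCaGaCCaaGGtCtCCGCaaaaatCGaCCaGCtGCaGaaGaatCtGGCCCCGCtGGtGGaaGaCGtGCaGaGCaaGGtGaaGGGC
Apoa1, transcript bases 777 to 896: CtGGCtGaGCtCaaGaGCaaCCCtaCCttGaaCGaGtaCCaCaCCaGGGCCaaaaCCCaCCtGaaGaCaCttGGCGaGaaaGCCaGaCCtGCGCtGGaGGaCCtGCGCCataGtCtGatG
Apob, transcript bases 5772 to 5891: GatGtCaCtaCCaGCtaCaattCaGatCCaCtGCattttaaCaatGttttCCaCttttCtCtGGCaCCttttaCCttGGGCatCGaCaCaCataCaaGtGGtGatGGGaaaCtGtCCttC
The transcripts hold 59.5% GC for Apoe, 57.6% for Apoa4, 56.8% for Apoa1 and 43.5% for Apob. Their deviations in IR vehicle replicate 2 were −2.01, −1.02, −1.06 and 1.63. A curve through all genes gave −1.40, −1.09, −0.96 and 0.60 at the same GC content, so Apoa1 and Apoa4 lay within 0.10 of the curve, Apoe lay 0.60 below it and Apob 1.02 above it. Of the other genes, Apoc1 (54.9% GC) lay 0.99 and Apoa2 (51.9%) 0.74 below the curve. Apoc3, with 56.0% GC, was 0.55 above the other libraries where the curve gave −0.83. The Apob transcript is the longest of the 9 at 13934 bases and that of Apoa2 the shortest at 518. In the same library the 5 erythroid markers summed to 1587 CPM against 312 to 626 CPM elsewhere, and the hepatocyte markers to 174339 CPM against 62927 to 113258 CPM. Their part in these values was not tested.

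**Figure D4:**
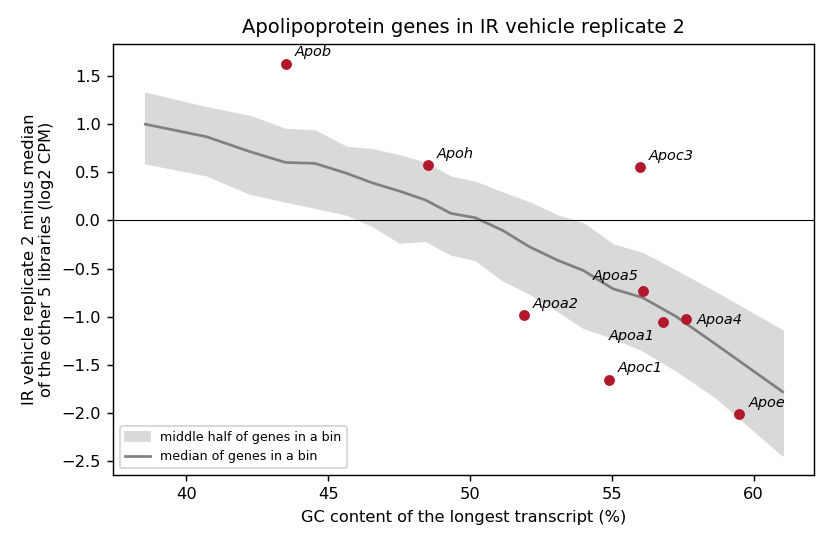
Difference in log2 CPM between IR vehicle replicate 2 and the median of the remaining 5 libraries, against the GC content of the longest coding transcript, for the 9 tested apolipoprotein genes (red); the line and the band are the median and the interquartile range of all genes in 20 bins of GC. Apoe lies lowest at −2.01 and Apob highest at 1.63. Apoc3 lies 1.38 above a smooth curve fitted through all genes, which is not drawn.

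Other genes of lipoprotein metabolism were read in 5 lists. Of 18 genes of VLDL assembly and secretion, 15 had a negative and 3 a positive log2 fold change, with a median of −0.21 beside −0.02 over all genes. With total counts only the split was 9 and 9 and the median −0.02 beside 0.16, and without IR vehicle replicate 2 it was 10 negative and 8 positive with a median of −0.05. In the other alternatives, which all hold that library, 14 or 15 of the 18 were negative. With all 6 libraries and TMM, 1 of the 18 passed the criteria, against 2.86% of all genes, and 0 did with total counts only. This was Sar1b, a GTPase of the vesicles that carry new particles out of the endoplasmic reticulum. Its vehicle libraries held 261, 618 and 344 CPM and its insulin libraries 241, 241 and 218 CPM, without overlap. Its log2 fold change was −0.81 ± 0.34 (SE; unadjusted p 0.0444, edgeR), and −0.37 (unadjusted p 0.0790) without IR vehicle replicate 2. Leaving out IR insulin replicate 1, 2 or 3 also ended the call (unadjusted p 0.102, 0.0994 and 0.124). Vmp1 (−0.37 ± 0.21) and Mttp (−0.42 ± 0.29), the lipid transfer protein that loads apoB, followed with unadjusted p values of 0.123 and 0.183. Without IR vehicle replicate 2 they were at −0.26 and −0.085, and without IR vehicle replicate 3 at −0.40 and −0.56.

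Among 15 genes for plasma lipases, lipid transfer and their regulators, 7 had a positive and 8 a negative log2 fold change, with a median of −0.14. With total counts only the split was 8 and 7 and the median 0.034. Pltp, which encodes the phospholipid transfer protein of plasma, was at 16.5, 7.55 and 19.9 CPM under vehicle and 36.1, 30.7 and 15.4 CPM under insulin. The groups overlapped, and its log2 fold change of 0.90 ± 0.43 (SE; unadjusted p 0.0711, edgeR) did not pass. It passed in 3 of 13 alternatives, with no filter on low counts (0.93, unadjusted p 0.0246), without IR vehicle replicate 3 (1.18, unadjusted p 0.0417) and without IR insulin replicate 3 (1.19, unadjusted p 0.0283), and it was 0.60 without IR vehicle replicate 2.

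Of 24 transcription factors known to act on apolipoprotein genes, 1 passed, against 2.86% of all genes. This was the nuclear receptor Rora, at 38.2, 89.8 and 56.6 CPM under vehicle and 31.7, 35.3 and 39.9 CPM under insulin. The groups overlapped. Its log2 fold change of −0.79 ± 0.32 (SE; unadjusted p 0.0414, edgeR) kept its sign in all 13 alternatives and passed in 4 of them. Without IR vehicle replicate 2 it was −0.41 (unadjusted p 0.0848), and leaving out IR vehicle replicate 3 (0.0512) or IR insulin replicate 1, 2 or 3 (0.127, 0.102 and 0.0698) also ended the call. Foxa1 (0.54 ± 0.24) and Foxo1 (−0.45 ± 0.25), the factor through which insulin acts on Apoc3, did not pass. Foxa1 passed with total counts only (0.70, unadjusted p 0.0370), and both passed without IR vehicle replicate 1 (0.66, unadjusted p 0.0484, and −0.64, unadjusted p 0.0233), where 9.81% of all genes did. Foxo1 was at 21.4, 33.9 and 35.3 CPM under vehicle and 22.6, 21.9 and 22.0 CPM under insulin, and its log2 fold change was −0.35 without IR vehicle replicate 2 and −0.32 without IR vehicle replicate 3. Nr0b2 passed, lower with insulin, with no filter on low counts (where 3.22% of all genes did) and with a GC offset (3.61%). It also passed with a block for replicate number and the GC offset together (2.56%). Without IR vehicle replicate 2 both Nr0b2 and Nr1d1 passed, lower with insulin, where 3.69% of all genes did. Positive values in the list numbered 14 and negative ones 10, with a GC offset 7 and 17, and with total counts only 17 and 7.

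None of the 14 tested genes of lipoprotein receptors and cholesterol efflux and none of the 11 tested of the 20 other apolipoproteins passed, where 2.86% of all genes did. The receptor list had 8 positive and 6 negative values, and 1 and 13 with a GC offset. In that list Lrp1 passed with total counts only (0.57, unadjusted p 0.0468), where 2.55% of all genes did, and it was −0.14 with a GC offset. Of the other apolipoproteins, Apom and Apoo passed without IR vehicle replicate 2, both lower with insulin, where 3.69% of all genes did. Apom was at 112, 86.1 and 279 CPM under vehicle and 115, 104 and 107 CPM under insulin. Its groups overlapped, and only IR vehicle replicate 3 stood apart. Without IR vehicle replicate 1, Apol9a and Apol9b (higher with insulin) and Apoo (lower) passed, where 9.81% of all genes did. The smallest unadjusted p values in these lists belonged to the receptor gene Lrp1 (0.40 ± 0.23), Lsr (0.54 ± 0.38) and Mylip (−0.66 ± 0.48), and to Apoo (−0.49 ± 0.23), Apol9a (0.69 ± 0.40) and Apol7a (−0.55 ± 0.34). Without IR vehicle replicate 2 Apol7a was at −0.16 and Apol9a at 0.43, and without IR vehicle replicate 3 Mylip was at 0.051.

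The genes whose levels followed Apoe, Apoa4 and Apoc1 most closely over the 6 libraries were found by the root mean square difference of log2 CPM, each gene centred on its own mean, among 7414 genes with a mean of at least 10 CPM. These 3 had the widest ranges of the members. Nearest to Apoe were Pigyl (0.0576), Ndufb6 (0.0606) and Rai1 (0.0611), and nearest to Apoc1 were Tmem11 (0.0563), Arl6ip4 (0.064) and Kdm6b (0.0672). All of these were lowest in IR vehicle replicate 2, and their transcripts held from 48.4% (Ndufb6) to 60.9% (Rai1) GC. Whether they share regulation with Apoe or Apoc1 was not tested. Nearest to Apoa4 was Tbx3 (0.124), which encodes a T-box transcription factor, ahead of Prob1 (0.28) and Cadm4 (0.281). Tbx3 read 38.1, 18.4 and 22.0 CPM under vehicle and 74.1, 42.5 and 55.5 CPM under insulin, so its groups did not overlap either, and it was picked for this likeness.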

How the data were processed

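Libraries of mouse liver RNA were used, 3 in each of 2 groups, with groups and replicate numbers taken from the sample labels. Per the study's methods and the submitters' processing notes, the authors prepared NEBNext Ultra RNA libraries for an Illumina HiSeq and mapped the reads to mm10 by Bowtie2 (2.2.3), which does not splice reads across introns. The deposited values are whole-number read counts per Ensembl gene, neither normalized nor pooled, and the counting program, its annotation and its strand setting are not given in the sources used here. Positions, transcript length and GC content were taken from GENCODE M21 (GRCm38), with 54409 of 54532 gene identifiers matched, using the longest coding transcript where a gene has one. Promoter sequences are from RefSeq (GRCm38.p6), with windows for 8 of the 10 genes and none for Apoc1 and Apoc3.

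The counts were tested by edgeR 4.0.16 in R 4.3.3 (glmQLFit, glmQLFTest, TMM, filterByExpr at its defaults of 10 counts and 15 in total). Benjamini-Hochberg adjustment ran over 13377 genes, and SEs were derived from the F statistic. The log2 CPM values used a prior count of 2. The script was tested on simulated data. Alternatives were RLE factors, total counts only, no filter, DESeq2 1.42.0, a loess GC offset (span 0.5), a replicate block, and each library left out.

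The 10 genes, the lists, the motifs and the tests were chosen with earlier results of these data known. Named are the 10 genes, the 3 with the smallest p of each other list (some results of the lipase list are not reported here), and the 3 genes nearest in pattern to each of the 3 members with the widest range. Apoc4, Apom, Apol9b, Nr0b2, Nr1d1 and genes that overlap a member were named after their values were seen. EdgeR's common biological coefficient of variation was 0.357.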

Additional observations from a re-analysis of the deposited data

How the results depend on the processing

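Of the 9 tested genes, Apoa2, Apoa4, Apoc1, Apoc3 and Apoh kept their direction in all 13 alternatives. With the GC offset the log2 fold change was −0.22 for Apoa1 and −0.20 for Apoa5, and with the replicate block and GC offset together −0.19 for each; the median of the members was −0.20 and −0.19 in these 2 fits. The GC offset left 1 member past the criteria, Apoc3 in place of Apoa4, and with the block added 0 were. Leaving out 1 library at a time gave 0 to 2 members past the criteria, with 0 without IR insulin replicate 1 and 2 (Apoa4 and Apoh) without IR vehicle replicate 1. The median then ran from −0.10, without IR vehicle replicate 2, to 0.42. Without IR vehicle replicate 2 or any 1 IR insulin library, Apoc2 passed the filter, and the median is over 10 genes. The log2 fold changes ran from −0.28 to 0.54 for Apoa1, −0.14 to 0.41 for Apoa5, −1.04 to 0.032 for Apob and −0.071 to 0.77 for Apoe. Here 0.032 and −0.071 are without IR vehicle replicate 2. The difference in the share of counts ran from −0.0237 to 1.22 percentage points.

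Over all genes, 383 passed the criteria, 134 higher and 249 lower. No filter gave 742, and leaving out 1 library 99 to 1349, highest without IR vehicle replicate 1 and 888 without IR vehicle replicate 3. Calls split into 250 higher and 91 lower with total counts only, which moved the median of all genes from −0.02 to 0.16, into 95 and 388 with the GC offset and 203 and 118 with the replicate block. The 3 calls in the other lists became 5 with no filter, 0 with the replicate block, 1 with the block and GC offset, and 0 to 8 when 1 library was left out (8 without IR vehicle replicate 1, 5 without IR vehicle replicate 2, 0 without IR insulin replicate 2). Same-numbered libraries had r of −0.039, 0.0688 and 0.0174 across genes, within the −0.11 to 0.0891 of all vehicle and insulin pairs. The labels give them a shared number only, and whether they also share a batch cannot be told from these values. With the replicate block alone Apoa4 was at 1.25 (unadjusted p 0.00423). The block changed no call on a member by itself. In all 13 alternatives 0 genes passed an adjusted p of 0.05, and the smallest ran from 0.114 to 0.998. The cause of these shifts was not tested. The spread between 3 libraries a group, not depth, limited the precision for all members except Apoc2.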
